A study of Drosophila melanogaster with 19 samples.

Results

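This account concerns 514 chromatin sites of Drosophila melanogaster S2 cells that a low dose of an adenine methyltransferase could reach and that lie at the ends of 2 or more protein-coding genes at once. They were found among 20386 regions, made by merging the peaks of 17 treated libraries wherever these overlapped by at least 1 bp. A region was kept if it held a peak in the Hia5 0.6 U library and in both Hia5 2 U libraries. It also had to hold a peak in fewer than 15 of the 17 treated libraries and no peak of a control library. Lastly it had to overlap the windows of 500 bp on either side of the ends of 2 or more different protein-coding genes on build dm6. The first 3 conditions left 2507 low-dose sites, of which 514 (20.5%) met the last and are called two-end sites below. A further 678 met it for a single gene and are called one-end sites, 1113 lay inside genes and 202 between genes. Among all 20386 merged regions 13.7% reached 2 or more gene ends. Since the sites were chosen by their peaks at Hia5 0.6 U and 2 U, peaks and heights in those 3 libraries are a description here and were not tested.

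In AdMTase-seq, nuclei are exposed to an enzyme that methylates the N6 position of adenine in whatever DNA it can reach, and DNA carrying the mark is then recovered with an antibody and sequenced. DNA wrapped around nucleosomes is largely protected, so at low enzyme doses the marked DNA comes mainly from nucleosome-depleted stretches such as active promoters and enhancers. The fly genome is compact, and many of its genes, housekeeping genes above all, sit close to a neighbour, often with their promoters back to back. A stretch of accessible DNA there can belong to either gene or to both.

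The cells were S2-DRSC (spelled S2-DSRC in the labels), a single hemocyte-like line of embryonic origin. Extracted nuclei received 1 of 5 enzymes for 20 min at 37 °C. Hia5 was given at 0.6, 2, 6, 20, 60 or 200 U, EcoGII and Btr192IV at 0.6, 2 or 6 U, EcoGI at 0.6 or 2 U, and Hin1523 only at 2 U. One control was an m6A immunoprecipitation without enzyme and the other a DNA input without antibody. Hia5 at 2 U and at 6 U had 2 libraries each and the other 15 groups had 1, so most values carry no error between samples. Library numbers fall in 2 series, taken here as 2 runs, which the labels do not state. The first holds both controls, replicate 1 of Hia5 2 U and 6 U, and Hia5 20, 60 and 200 U. All other libraries are in the second. Between Hia5 above 6 U and the other enzymes, enzyme, dose and run therefore cannot be told apart. Whether the replicates were separate cultures is not stated, so a p-value below covers no more than the spread of these libraries, which can be technical.

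The deposited lists held from 772 to 13395 peaks in treated libraries, against 1974 without enzyme and 32 in the input. In each library peak heights were whole multiples of a fixed step (tolerance 0.05 of it), and 1 over this step, a relative depth, ran from 7.28 (Hia5 0.6 U) to 25.5 (EcoGII 6 U) in treated libraries. It was 11.3 without enzyme but 0.673 for the input, which makes the input a weak control. Read totals were not used here.

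The 514 sites reached 984 protein-coding genes, 7.06% of the 13946 in the table, in 480 combinations. One-end sites reached 630 (4.52%), and 22 genes had both kinds. Of the sites, 477 reached 2 genes, 35 reached 3, 1 reached 4 and 1 reached 5. The median width was 321.5 bp (quartiles 270.25 and 460), against 350 bp for one-end sites. A close neighbour is common in this genome: 11228 protein-coding genes (80.5%) had an end within 1000 bp of an end of another, and 982 of those were at a two-end site. By chromosome, 132 sites lay on 3R, 120 on 2R, 106 on 3L, 93 on 2L, 60 on X, 3 on 4 and 0 on Y. X held 11.7% of the two-end sites, 13.8% of all low-dose sites and 15.8% of protein-coding genes.

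At most sites the genes stood apart. The nearest pair of ends belonged to genes that do not overlap at 429 sites (83.5%, 95% Wilson interval 80.0 to 86.4), to nested genes at 50 sites (9.73%) and to partly overlapping genes at 35 sites (6.81%). Where the genes stood apart, the gap had a median of 262 bp (quartiles 125 and 401, range 4 to 1114). These intervals cover counting error only, and neighbouring sites are not independent. Because the gene table used here gives no strand, head-to-head, tail-to-tail and tandem neighbours could not be told apart.

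The centre of a site lay beyond the gap more often than in it. Among the 429 sites between non-overlapping genes, 147 had their centre in the gap and 282 had it beyond the gap, on the side of 1 of the genes. With windows of 500 bp and a median gap of 262 bp, the rule leaves more room beyond a typical gap than in it. The count therefore cannot show that sites avoid the gap. For gaps under 100 bp the centre was in the gap at 26 of 75 sites, and for 100 to under 200 bp at 29 of 94. For 200 to under 400 bp it was there at 42 of 152, and for 400 to under 700 bp at 47 of 105. At the 3 sites with wider gaps it was always in the gap. Over all 514 sites the centre lay inside a gene at 358 (69.6%), against 64.2% of one-end sites. Measured from the nearest gene end, with positive values inside that gene, the median position was 24.5 bp (quartiles -22.5 and 173) for two-end sites and 18.5 bp (quartiles -121 and 316) for one-end sites. The centre was within 200 bp of a gene end at 78.0% of two-end sites and 48.8% of one-end sites. Part of that difference comes with the definition, since a site that must reach 2 windows has more ends to be near.

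**Figure D1:**
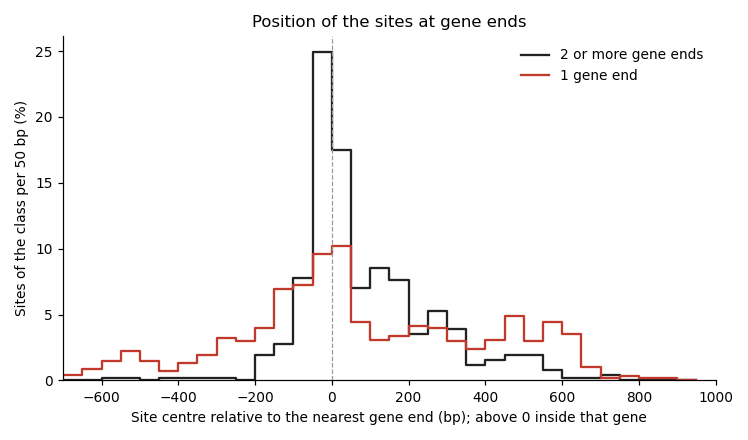
Position of the site centre relative to the nearest gene end, in bins of 50 bp, as a percentage of the 514 two-end sites (black) and of the 678 one-end sites (red). The horizontal axis is in bp, with values above 0 inside the gene, and positions were measured without strand. Two-end sites gather close to the gene end, 78.0% of them within 200 bp, while one-end sites spread wider.

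Within the 3 libraries that chose them, two-end sites were of middling height. The height percentile used here is the rank of the highest peak at a site among all peaks of a library, from 0 to 100, and its mean over the 3 libraries had a median of 59.9 (quartiles 46.7 and 72.5, range 10.2 to 98.0). One-end sites had a median of 62.9, sites inside genes 71.0 and intergenic sites 65.2. These are values of the choosing libraries and stand as a description. Near the 500 bp limit, 65 two-end sites whose second end lay over 400 bp away had a median percentile of 60.04. The 76 one-end sites whose next gene end lay up to 100 bp beyond the limit had 64.1. These medians were no closer than those of the whole classes, 59.9 and 62.9. At the limit on libraries, the 23 two-end sites with peaks in 14 treated libraries had a median of 80.3, and 15 regions with 15 libraries, just outside it, had 79.7.

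The highest two-end site lay at ncd, a minus-end directed kinesin of the spindle, and ca (claret), on 3R from 29806621 to 29806920, where the genes partly overlap. Its height percentile was 98.4 at Hia5 0.6 U, and 97.5 and 98.2 in the 2 U replicates. Peaks at this site recurred in 10 of the 14 treated libraries that the rule does not name, including both Hia5 6 U libraries, but in no Hia5 library above 6 U and not in Btr192IV 6 U. A second site at the same gene pair, from 29807041 to 29807400, stood at 93.8, 93.3 and 93.7 and recurred in 7. So 2 separate sites at 1 gene pair were both among the 10 highest.

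Next in height was a site on 3R from 29798981 to 29799240 at Drice, an effector caspase gene, and Rnb, with percentiles of 97.4, 95.8 and 97.2. In spite of this height it recurred in only 6 further libraries: the 3 of EcoGII, Hin1523 2 U, and Btr192IV and EcoGI at 0.6 U. No further Hia5 library had a peak there. The site at ATPsyngamma, the gamma subunit of the mitochondrial ATP synthase, and yata (3R, 29749301 to 29749780) had 96.2, 96.9 and 96.6 and recurred in 9, among them Hia5 200 U.

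On X, the site from 19865921 to 19866820 at Hers, a repressor of histone genes, and THADA stood at 96.4, 96.5 and 95.8. It recurred in 11 libraries, the most the rule allows. The site at Nup205, a nuclear pore scaffold gene, and pico (X, 19851381 to 19852560) had 93.1, 96.7 and 91.7 and recurred in 10.

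Both X sites are among the few two-end sites with a Hia5 200 U peak. So is the site at stg (string, the Cdc25 phosphatase that drives entry into mitosis) and CG45544 on 3R from 29255281 to 29256212, with percentiles of 95.5, 92.4 and 94.3 and 10 further libraries. No Hia5 200 U peak was present at skd, which encodes the Mediator subunit Med13, and Pdss2, of coenzyme Q synthesis (3L, 21026181 to 21027532). That site had percentiles of 94.9, 94.4 and 95.2 and recurred in 9. These 4 sites are wide, from 900 to 1352 bp, and so may join several peaks of 1 library. The 10 highest also included CG34200 and CG7791 (2R, 5757481 to 5758040, mean percentile 96.4) and CG14971 and CG32267 (3L, 3471221 to 3471500, 92.7), where the centre fell in a gap of 245 bp.

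**Figure D2:**
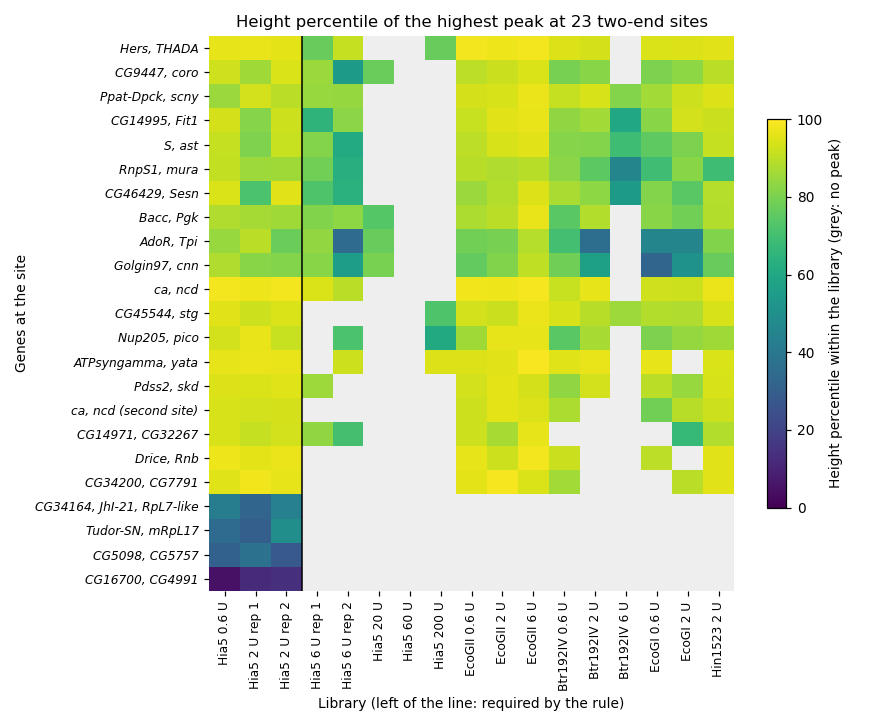
Height percentile (colour, 0 to 100) of the highest peak at 23 two-end sites (rows, named by their genes) in each of the 17 treated libraries (columns), with grey for no peak. The rows are the 10 highest sites, the 10 leading sites with peaks in 14 treated libraries and the 4 sites with peaks in the 3 choosing libraries alone, 1 site being in both of the first 2 sets. EcoGII columns are filled in all but the last 4 rows, while Hia5 20, 60 and 200 U columns are mostly grey.

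Taken over the 14 treated libraries that the rule does not name, a two-end site recurred in a mean of 5.70 ± 2.58 (SD over 514 sites) and could not recur in more than 11. EcoGII found nearly all of them. Peaks were present at 466 of 514 sites (90.7%, Wilson interval 87.8 to 92.9) at EcoGII 0.6 U, where 30.6% of all merged regions had one, at 476 (92.6%) at 2 U against 36.3%, and at 450 (87.5%) at 6 U against 61.3%. The merged regions include many found in 1 library, so they are a low bar for any site found in 3. Hin1523 at 2 U had peaks at 400 sites (77.8%) against 25.2% of merged regions.

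The other enzymes found fewer. Btr192IV had peaks at 263 sites (51.2%, Wilson interval 46.9 to 55.5) at 0.6 U, at 183 (35.6%) at 2 U and at 17 (3.31%) at 6 U, where 16.9%, 14.2% and 6.72% of merged regions had one. EcoGI had peaks at 234 (45.5%) at 0.6 U and at 178 (34.6%) at 2 U, against 13.2% and 13.5%. At 6 U of Btr192IV the two-end sites thus fell below the share of merged regions, and in the other libraries of these 2 enzymes they were above it. Sites found at a higher dose were mostly those found at a lower one: 16 of the 17 Btr192IV sites at 6 U were also found at 2 U, and 139 sites were found at both 2 U and 0.6 U, which is 76.0% of the former and 52.9% of the latter. For EcoGI the 132 sites found at both doses were 74.2% of those at 2 U and 56.4% of those at 0.6 U. Among one-end sites the like shares were 80.3% and 66.2% for Btr192IV and 75.8% and 69.5% for EcoGI. Such overlap between doses was therefore not particular to two-end sites.

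Higher doses of Hia5 left few two-end sites with a peak. The 6 U replicates had 123 (23.9%) and 88 (17.1%), against 12.6% and 9.82% of merged regions, a mean of 20.5% ± 4.81 (SD, n = 2). Replicate 2 had the lower relative depth, 7.89 against 11.9, and is in the other inferred run. The replicates shared 57 sites, which is 46.3% of those in replicate 1 and 64.8% of those in replicate 2. At 20 U there were 42 sites (8.17%, against 11.1% of merged regions), at 60 U 2 sites (0.389%, against 3.41%) and at 200 U 10 sites (1.95%, against 18.2%). Of the 42 sites at 20 U, 36 had also been found in a 6 U library, as had most one-end sites found at 20 U. No two-end site was found in all 5 of these Hia5 libraries, though the 2 sites at 60 U allowed at most 2. Of the one-end sites, 4 of 678 were found in all 5. In none of these libraries were 349 of 514 two-end sites (67.9%) found, against 51.5% of one-end sites.

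**Figure D3:**
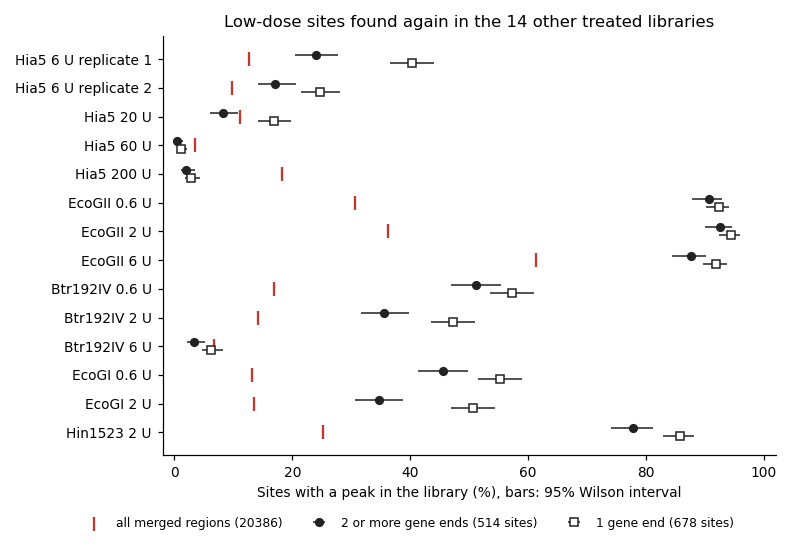
Percentage of the 514 two-end sites (filled circles) and the 678 one-end sites (open squares) with a peak in each of the 14 treated libraries that the rule does not name, with 95% Wilson intervals. Red ticks give the percentage of all 20386 merged regions. EcoGII lies near 90%, Hia5 60 and 200 U near 0, and the two-end symbol is left of the one-end symbol in all 14 libraries.

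At matched doses EcoGII had the highest share among the libraries that the rule does not name. At 0.6 U it stood at 90.7%, with Btr192IV at 51.2% and EcoGI at 45.5%. At 2 U it was EcoGII (92.6%), Hin1523 (77.8%), Btr192IV (35.6%) and EcoGI (34.6%). The intervals of Btr192IV and EcoGI overlapped at both doses. At 6 U EcoGII (87.5%) stood above Hia5 (20.5%) and Btr192IV (3.31%). Units of different enzymes may differ in activity.

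EcoGII and Btr192IV were compared over their 3 doses. The mean share of two-end sites with a peak was 90.3% ± 2.55 in EcoGII and 30.03% ± 24.4 in Btr192IV (SD, n = 3 each), a difference of 60.2 percentage points, and all 3 EcoGII libraries were above all 3 Btr192IV libraries. The exact two-sided permutation p was 0.1, the smallest that 3 libraries against 3 can give, so the test cannot pass. The EcoGII lists are also much longer. With each of the 6 lists cut to its 1425 highest peaks, the shares were 17.9%, 15.6% and 13.04% for EcoGII at 0.6, 2 and 6 U and 16.1%, 12.6% and 3.31% for Btr192IV. The difference was then 4.80 points (exact permutation p = 0.4) and the groups overlapped.

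Longer lists held more of the two-end sites in general. Across the 14 libraries the share rose with the log2 number of peaks in the list (r = 0.847, permutation p = 4e-05, adjusted p = 8e-05; rho = 0.811, permutation p = 0.00068, adjusted p = 0.00075, over the relations for two-end and one-end sites). For one-end sites r was 0.840, so the relation was not particular to two-end sites. A longer list can hold more of any set of regions, so its direction was foreseeable. The libraries include dose series of the same enzymes, while the permutation treats them as exchangeable, so these p-values can be too small. Without EcoGII 6 U and Hia5 60 U, the libraries farthest from the median length, r for two-end sites was 0.849 (permutation p = 0.00058, adjusted p = 0.00116). Within the 10 libraries of the second run, as inferred from library numbers, r was 0.947 (permutation p = 4e-05). The first run holds 4 of these libraries, too few for a correlation. Hia5 200 U stood off the relation, with 4054 peaks and 1.95% of the sites, where Btr192IV 0.6 U with 3692 peaks held 51.2%. These libraries differ in enzyme, dose and inferred run, which cannot be told apart here.

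**Figure D4:**
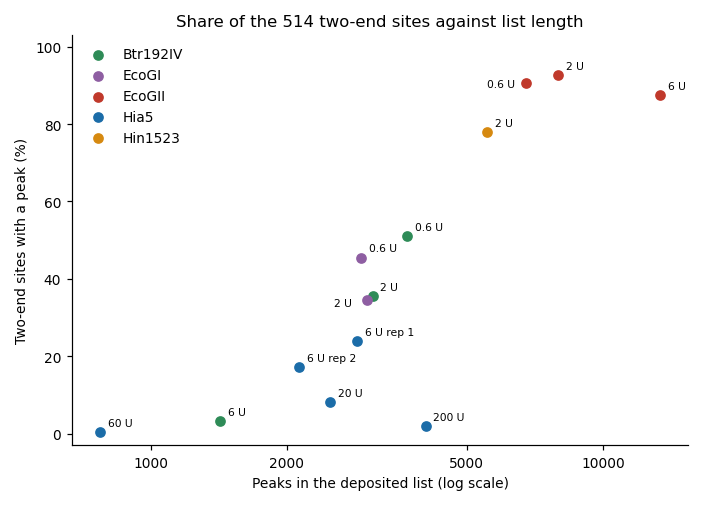
Percentage of the 514 two-end sites with a peak (vertical) against the number of peaks in the library's list (horizontal, log scale) for the 14 treated libraries that the rule does not name, coloured by enzyme and labelled by dose. The share climbs with list length (r = 0.847 on the log2 scale), with Hia5 200 U far below libraries of like length.

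Counted by enzyme, 207 sites (40.3%) had a peak of each of the 4 other enzymes in at least 1 of its libraries, 127 of 3 of them, 111 of 2, 65 of 1 and 4 of none. Of the one-end sites, 364 of 678 (53.7%) had all 4. Where a single other enzyme had a peak, it was EcoGII at 64 of the 65 two-end sites and at 48 of 49 one-end sites. No two-end site was marked by further Hia5 libraries and by no other enzyme, but only the 4 sites without another enzyme could have been. The reverse did occur and had more room. A further Hia5 peak was absent at 349 sites, and the other enzymes had 9 libraries against 5. Sites with peaks in 8 of the 9 libraries of the other enzymes and no further Hia5 peak included those at Gpdh1 (glycerol-3-phosphate dehydrogenase) and Sfp26Ad, at the deacetylase gene Sirt1 and DnaJ-H, at cora (coracle, of septate junctions) and CG7137, and at Dp (the partner of E2F) and Fsn.

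Two-end sites recurred less widely than one-end sites. The share with a peak was lower for two-end sites in 14 of 14 libraries, with differences from -0.643 points at Hia5 60 U to -16.3 points at Hia5 6 U replicate 1 and a mean of -6.84 points. A one-end site recurred in a mean of 6.66 ± 2.70 libraries (SD over 678 sites), a site inside a gene in 6.82 and an intergenic site in 6.84, against 5.70 for a two-end site. In the Hia5 6 U replicates the one-end shares were 40.3% and 24.6%. At EcoGII 2 U and 0.6 U the differences were small, -1.79 and -1.67 points. No test was made, since sites of 1 library are not replicates and all libraries were read at the same sites.

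This difference was also read at like height, at like width and in lists of equal length. Two-end sites were on the whole lower in the choosing libraries, so the classes were also set side by side within 4 bins of equal size, made from the mean height percentile of all low-dose sites. In the lowest bin 146 two-end sites recurred in a mean of 4.44 libraries and 184 one-end sites in 5.14. In the second bin the means were 5.25 and 5.90, in the next 6.70 and 7.38, and in the highest, with 62 and 138 sites, 7.92 and 8.87. Two-end sites had the lower mean in each of the 4 bins. Weighted by the two-end sites, the difference within these bins was -0.71 libraries, against -0.96 over all sites. In 4 bins of width, two-end sites again had the lower mean in each. The narrowest bin held 183 two-end sites with a mean of 4.52 libraries and 166 one-end sites with 5.16. In the widest, 122 and 165 sites had means of 6.70 and 7.19. Merging can widen a site as more libraries add peaks, so width is not independent of recurrence. With only the 772 highest peaks of each list, the difference came to -0.46 libraries. Two-end sites again had the lower share in 14 of 14 libraries. Such short lists held few sites of either class, so -0.46 is on a smaller scale than -0.96. At EcoGII 2 U the cut list held 5.45% of two-end and 10.3% of one-end sites, against 92.6% and 94.4% in full. In proportion the classes were thus farther apart there, while at Btr192IV 6 U they were closer (1.95% and 2.65%, against 3.31% and 6.19%).

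**Figure D5:**
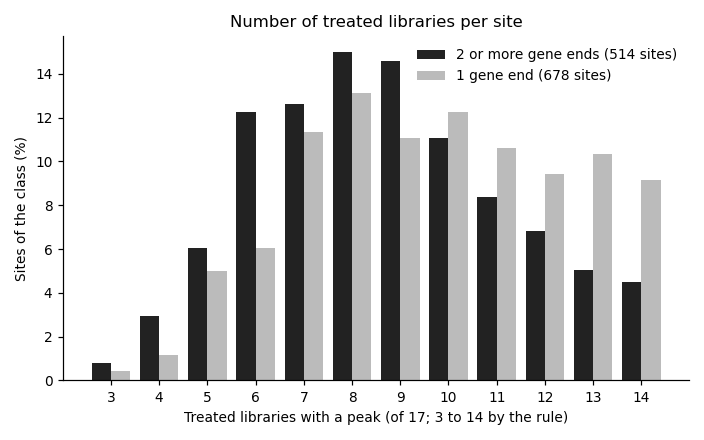
Number of treated libraries with a peak per site (horizontal, 3 to 14 by the rule) as a percentage of the 514 two-end sites (black) and of the 678 one-end sites (grey). Two-end sites have a median of 9 treated libraries and one-end sites a median of 10.

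Among the two-end sites themselves, the mean number of the 14 libraries with a peak was 5.72 where the genes stood apart (429 sites), 5.16 where they were nested (50 sites) and 6.26 where they partly overlapped (35 sites). By gap it was 5.15 for the 75 sites with a gap under 100 bp, 5.94 for gaps of 100 to under 200 bp, 5.72 for gaps of 200 to under 400 bp and 5.91 for gaps of 400 to under 700 bp, which is no steady order. These differences were not tested.

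The 23 sites with peaks in 14 treated libraries included genes of central metabolism, the cytoskeleton and signalling. On 2L, Bacc and Pgk, the glycolytic phosphoglycerate kinase gene (2752925 to 2753240), had height percentiles of 88.2 at Hia5 0.6 U and 86.6 and 85.9 at 2 U. On 3R, AdoR, the adenosine receptor gene, and Tpi, the glycolytic triosephosphate isomerase gene (30134061 to 30134520), had 84.5, 89.5 and 77.6. Both of these glycolytic genes had a peak at Hia5 20 U. So did coro (the actin-binding protein coronin) with CG9447 (2R, 6871641 to 6873205) and cnn (centrosomin) with Golgin97 (2R, 13449901 to 13450200). Of the 23 sites, only Hers and THADA had a Hia5 200 U peak and only Cpr97Ea and CG14257 a 60 U peak. With peaks in 14 of 17 treated libraries, any other site had to have a peak at Hia5 20 U or Btr192IV 6 U. The Hia5 20 U peak is thus no particular trait of these genes.

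Further sites of this set had a peak at Btr192IV 6 U, as 17 of all two-end sites did. Among them were scny, a histone H2B deubiquitinase gene, with Ppat-Dpck, of coenzyme A synthesis (3L, 5769185 to 5769580), Fit1, a kindlin that activates integrins, with CG14995 (3L, 4103533 to 4104120), and S (Star, which carries EGF receptor ligands through the secretory pathway) with ast (2L, 1077674 to 1078020). RnpS1, of the exon junction complex, with mura (3R, 9551301 to 9551640), and Sesn (sestrin) with CG46429 (2R, 23713321 to 23713600) did so too. These named sites lacked a peak at Hia5 20 U, so the choice of the set required the Btr192IV 6 U peak. The Star site was narrow, 347 bp, and centred in a gap of 132 bp.

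At the other end, 4 sites had peaks in the 3 choosing libraries alone. They lay at CG34164, the amino acid transporter gene JhI-21 and RpL7-like (2L, 12056201 to 12056440), at Tudor-SN and mRpL17 (3L, 264705 to 264959), at CG5098 and CG5757 (2R, 18095317 to 18095485), and at CG16700 and CG4991 (X, 17091750 to 17091860). Their mean height percentiles were 39.5, 38.3, 32.3 and 10.2. The last was also the narrowest two-end site, at 111 bp. All 4 were below the median height of two-end sites.

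The sites with most genes that are named here had nested genes as their nearest ends. The site with 4 genes (X, 19744197 to 19744626) was at COX6B, of cytochrome c oxidase, Rpp20, CG18809 and CG33932, and recurred in 4 further libraries. Sites with 3 genes included eIF5B with the piRNA helicase gene armi and CG46463 (3L, 3461161 to 3461681), Ets21C with Spp and nAChRbeta3 (2L, 544541 to 544785), and alpha-Spec (alpha-spectrin) with the Hsp90 cochaperone gene Cdc37 and dlt (3L, 1794701 to 1794980). With several genes at 1 end, a peak cannot be given to any of them.

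Several gene pairs held more than 1 site: 32 combinations did, and 2 held 3 each. At Cpr, the cytochrome P450 reductase gene, and Pez (2L, between 6338261 and 6339520) the 3 sites had peaks in 7, 9 and 10 treated libraries. At KP78a and KP78b (3R, between 11352372 and 11353860) they had 9, 7 and 12. KP78a and KP78b are paralogous kinase genes, so read placement between them may be uncertain. These 2 pairs were named after their values were seen.

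Gene groups were read against the 7.06% of all protein-coding genes that had a two-end site, as counts without a test. Of 93 genes listed as cytoplasmic ribosomal proteins 16 (17.2%) had one, among them RpL4, RpL7, RpL23A, RpS9, RpS20 and RpLP0. The sites of the 16 genes were of modest height, with mean percentiles from 20.2 to 67.7. They had peaks in 3 to 14 treated libraries with a median of 9. The site with 3 was at RpL7-like and the site with 14 at RpL24-like. Both ends of this range thus come from genes named only as like a ribosomal protein gene. Of 73 mitochondrial ribosomal protein genes 10 (13.7%) had one, from mRpL3 on X (mean percentile 16.3, 6 treated libraries) to mRpL53 on 2R (87.4, 11 libraries). Translation factors and tRNA synthetases had 12 of 84 (14.3%), among them eIF5B, eIF3a, which shared a site with srl and another with CG1074, eIF3b, GlnRS and HisRS. Their sites had a median percentile of 71.5, above the 59.9 of all two-end sites.

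Genes of replication and splicing stood at like shares. DNA replication had 4 of 31 (12.9%), including Mcm2 and RPA1, subunits of the replicative helicase and of the single-strand binding complex, which are neighbours at 1 site (3R, 8264841 to 8265160, gap 518 bp, 10 treated libraries). The others were dup, the fly Cdt1, and RfC38, of the clamp loader. Spliceosome genes had 4 of 33 (12.1%): Prp40, Sf3a1, Sf3b6 and snRNP-U1-C. Vacuolar ATPase genes had 5 of 33 (15.2%), and 1 of them, VhaM9.7-b, shared its site with COX8 of the respiratory chain (3L, 21539721 to 21540040, 9 treated libraries). A ribosomal pair, RpL27A and mRpL27, likewise shared 1 site (2L, 4458223 to 4458409, 7 treated libraries).

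Close to the share of all genes were the respiratory chain and ATP synthase with 6 of 80 (7.5%), Mediator, TAF and basal transcription genes with 5 of 65 (7.69%) and the proteasome with 3 of 48 (6.25%). The cell cycle list had 3 of 22 (13.6%): ncd and stg, described above, and CycB3, a mitotic cyclin gene, with CG3744 (3R, 24870681 to 24871000, mean percentile 48.2, 12 treated libraries). Of 12 hemocyte genes, markers of the blood cells that S2 cells resemble, 1 had a two-end site. It was crq (croquemort), a receptor for apoptotic cells, with shv (2L, 452941 to 453248), at percentiles of 89.8, 94.4 and 90.9 in the choosing libraries and peaks in 7 treated libraries. A peak at a gene end does not show that the gene is expressed.

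Gene families of other tissues were seldom at two-end sites. Chemoreceptors had 2 of 179 (1.12%), Or46a with CG18011 and Gr63a with Ccz1 and Lamtor4, and cuticle proteins 2 of 95 (2.11%), Lcp9 with CG3594 and Cpr97Ea with CG14257. In each case the site could belong to the neighbour. The innate immune list had 0 of 12 and the Hox and segmentation list 0 of 14. At a share of 7.06%, lists this short can hold 0 without being unusual. At one-end sites were 5 of each (41.7% and 35.7%), against 4.52% of all protein-coding genes. In the other lists the one-end share ran from 0% (spliceosome and cuticle proteins) to 16.7% (hemocyte). Only 3 of the 14 Hox and segmentation genes have a gene end within 1000 bp of another gene's, against 12 of 12 innate immune genes, so few of the former could have had a two-end site. Among genes with such a close neighbour, 8.75% of all protein-coding genes, 19.5% of the listed cytoplasmic ribosomal protein genes and 1.69% of the chemoreceptor genes were at two-end sites. The other lists with a two-end site ran from 3.03% (cuticle proteins) to 17.2% (vacuolar ATPase). Among them, the proteasome had 7.14%, Mediator, TAF and basal transcription 7.94%, hemocyte genes 9.09% and the respiratory chain 9.52%. Several of these shares rest on 1 to 5 genes. Some listed genes, such as RpL24-like and RpS28a, have names close to those of other ribosomal protein genes. Whether reads were placed uniquely there was not examined.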

How the data were processed

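Each library has its own list of peaks, deposited by the authors at an FDR of 5% per the file names, with positions and a peak height (signal). Per the submitters' processing notes BWA 0.7.12, SAMtools 1.2 and builds GRCh38 and dm6 were used. No source used here names the peak caller or its filters. Heights are the authors' deposited signal values and were only ranked within a list.

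Peaks were merged, looked up and set against gene ends in Python 3.11.15 with numpy 2.4.6, pandas 2.3.3 and scipy 1.17.1. Genes came from a RefSeq table of the release 6 assembly (17807 genes on 7 chromosomes), which gives no strand, exons or sequence. Planned motif and A+T counts and the 5' or 3' sense of gene ends are therefore not analysed here, and arrangement was taken from gene overlap. The merging and selection steps were tested on simulated data. Permutation tests were two-sided, exact with fewer than 10 values and otherwise with 100000 resamples, adjusted by Benjamini-Hochberg. Shares carry 95% Wilson intervals for counting error only. Sites were named by fixed rules: the 10 highest, the 10 with most libraries, up to 5 with the choosing libraries alone, up to 5 with most genes, up to 5 marked by other enzymes without further Hia5, and those at 15 gene lists. The text names examples from the gene lists, and 2 sites of the other rules are not reported here. Members, lists and rules were chosen with earlier results of these data known. Alternatives varied the window, overlap, merging, peak height, required libraries, controls, the limit on libraries and list length.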

Additional observations from a re-analysis of the deposited data

Results flagged for a closer look

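From 0.6 U to 2 U the share of two-end sites with a peak moved in opposite directions in 2 enzymes. It went up by 1.95 points with EcoGII and changed by -15.6 points with Btr192IV. Each value sets 1 library against 1 library, so the difference was not tested. The EcoGII list grew from 6772 to 7969 peaks between these doses and the Btr192IV list shrank from 3692 to 3098. With each list cut to its 1425 highest peaks, the share went from 17.9% to 15.6% with EcoGII and from 16.1% to 12.6% with Btr192IV, so that the direction for EcoGII turned and both were lower at 2 U.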

How the results depend on the processing

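The number of two-end sites followed the definition: 276 with windows of 200 bp, 799 with 1000 bp and 261 with the higher 50% of each list, against 514. Without the peak required in 1 or the other Hia5 2 U replicate it ran from 716 to 734. The difference between EcoGII and Btr192IV kept its direction under all alternatives run, from 48.2 to 70.6 points with 1 dose left out, and came down to 4.80 points in lists of equal length. The difference in recurrence between two-end and one-end sites was -0.96 libraries, and -1.25 with no limit on libraries. It was -0.71 within the 4 bins of height and -0.46 with the 772 highest peaks, both chosen after seeing the data. The last is on a smaller scale, since such short lists held few sites of either class. Without 1 or the other Hia5 6 U replicate the difference ran from -0.88 to -0.79. It was negative under all alternatives run. With the higher 50% of each list, two-end sites had the lower share in 12 of 14 libraries instead of 14. The correlation with list length was 0.922 without Hia5 200 U, chosen after seeing the data. The remaining values kept their direction and side of the threshold. No paired analysis was possible because only Hia5 2 U and 6 U share more than 1 replicate number, and both 2 U libraries were used to choose the sites. With EcoGII and Btr192IV exchanged within doses, the exact permutation p was 0.25, the smallest possible. Motif and A+T alternatives were not run. Depth limits the absence of a peak, above all in the input.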

Other observations

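Few two-end sites had a peak at the highest Hia5 doses, and the 12 sites below were named after their values were seen. At 60 U there were 2. One lay at hoip, of the U4 small nuclear ribonucleoprotein, and pelo (pelota, of ribosome rescue), on 2L from 9700701 to 9700960, with a height percentile of 57.2 at 60 U. The other was at the cuticle protein gene Cpr97Ea and CG14257, with 26.4 at 60 U and a mean of only 21.3 in the choosing libraries, although 14 treated libraries had a peak there.

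At 200 U there were 10, with percentiles in that list from 12.6 at the HMG-box gene Dsp1 and CG9921 to 94.8 at ATPsyngamma and yata. The others were at Hers and THADA (76.8), stg and CG45544 (72.5), Nup205 and pico (60.6), SC35 and eRF3 (31.3), Tango14 and capt (81.6), MED19 and CG7430 (32.6), Dora and CG7326 (22.1), and Polr2H and CG11247 (49.1). Of the 10, 4 were among the 10 highest two-end sites at low dose.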
